A study of Mus musculus with 2 samples.

Results

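The genes described here are 10 genes of fatty acid synthesis and its control, 5 regulators of the SREBP pathway (Srebf1, Srebf2, Scap, Insig1 and Insig2) and 5 enzymes (Fasn, Acaca, Scd1, Scd2 and Elovl6), out of 22558 genes in the deposited tables. They were picked by symbol, and all 10 were found. RNA was sequenced from breast tumour cells of inbred FVB mice, which had been sorted by flow cytometry and not treated. The first group was tumour-initiating cells (TIC), the fraction able to seed new tumours, and the second was non-tumorigenic cells (NTC), with 1 library each. The sources used here give neither the sorting gate, nor the number of animals behind a library, nor the cause of the tumours. With 1 library a group there is no replicate check, no SD and no test, and every difference is one between these 2 libraries. In bulk RNA, fewer cells of a type and less RNA per cell cannot be told apart.

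SREBPs are transcription factors made as membrane proteins of the endoplasmic reticulum. The escort protein SCAP carries them to the Golgi, where a pair of proteases frees the active part, and the INSIG proteins hold SCAP back when sterols are plentiful. SREBP-1, from Srebf1, mainly drives fatty acid genes, and SREBP-2, from Srebf2, mainly drives cholesterol genes. Acetyl-CoA carboxylase (Acaca) makes malonyl-CoA, fatty acid synthase (Fasn) builds palmitate from it, Elovl6 lengthens palmitate to stearate, and the stearoyl-CoA desaturases (Scd1 and Scd2) introduce a double bond. In the mammary gland this pathway is known for making milk fat in luminal alveolar cells.

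Levels are in FPKM, the authors' fragments per kilobase of transcript scaled to the fragments mapped. Comparisons between genes are rough, because the RNA was amplified and levels may depend on a gene's length and base make-up. Ratios are log2((TIC + 1)/(NTC + 1)), with 1 FPKM added to each level, which understates differences of low genes. A gene with a mean of at least 1 FPKM counts as measured, which held for 12004 genes and for all 10 described here, and a log2 ratio past 1 in either direction counts as at least 2-fold. Over all genes the TIC library held 332935 FPKM and the NTC library 376464 FPKM. Steps in the low values of short receptor genes put 1 FPKM at very roughly 21.0 reads per kb in TIC and 21.6 in NTC. The steps were sought only within a preset range, which held 23 genes in TIC and 39 in NTC. That range bounds both values, so they cannot show that the libraries had like depth. The median measured gene had a log2 ratio of -0.16. The libraries also differed in lineage. TIC had all 8 basal markers at least 2-fold higher, 3727 FPKM in sum against 32.8 in NTC. All 9 luminal markers were at least 2-fold lower, at 264.0 FPKM in TIC against 3972 in NTC, and so were all 8 alveolar and milk markers, with 57.9 against 4860 FPKM. The part of lineage in the differences below was not tested. Of 10 adipocyte markers, 9 were below 1 FPKM in both libraries, and Adipoq, Pparg, Cfd, Cidec and Retn were listed at 0 in both. The 1 measured, Lipe, had 5.85 FPKM in TIC against 12.1 in NTC, a log2 ratio of -0.94. Of the other cell types, 3 of 6 fibroblast markers were measured and all 3 were higher in TIC, led by Dcn. All 6 summed to 171.4 FPKM in TIC against 2.37 in NTC, and Col1a1, Col3a1 and Lum were below 1 FPKM in both. The 6 Schwann cell markers summed to 59.8 FPKM in TIC against 18.1 in NTC, with Egr2 at 49.6 against 5.70 FPKM and Mbp, which was lower in TIC, at 6.47 against 11.5 FPKM. The 6 leucocyte markers summed to 2.44 against 2.23 FPKM, with Ptprc and Emr1 listed at 0 in both, and the 5 endothelial markers to 3.03 against 0.351 FPKM.

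The upstream sequences of 4 genes show where the known SREBP recognition letters lie in genes that differed between the libraries (Srebf1, Fasn) and in genes that stayed within 2-fold (Srebf2, Insig1). Each is the 250 bases before a RefSeq start site, in build GRCm38.p6. They were read from the RefSeq promoter table, which matched 8 of the 10 genes. Capitals mark TCACCC, the core of the sterol regulatory element, its longer form TCACNCCA, and CCAAT, the site of the partner factor NF-Y, on either strand.
Srebf1, start nearest the 3′ end of 3 (chr11:60210472-60210721, minus strand): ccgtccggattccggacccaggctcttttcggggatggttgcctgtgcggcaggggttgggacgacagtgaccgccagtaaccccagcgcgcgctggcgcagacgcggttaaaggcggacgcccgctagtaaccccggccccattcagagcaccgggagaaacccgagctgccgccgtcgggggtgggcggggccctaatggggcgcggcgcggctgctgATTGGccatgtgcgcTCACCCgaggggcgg
Fasn (chr11:120824548-120824797, minus strand): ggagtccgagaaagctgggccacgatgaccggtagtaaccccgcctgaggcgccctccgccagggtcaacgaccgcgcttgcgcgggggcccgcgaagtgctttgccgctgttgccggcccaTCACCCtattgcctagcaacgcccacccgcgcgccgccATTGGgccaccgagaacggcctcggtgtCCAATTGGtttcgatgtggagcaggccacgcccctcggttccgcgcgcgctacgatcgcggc
Srebf2 (chr15:82147019-82147268, plus strand): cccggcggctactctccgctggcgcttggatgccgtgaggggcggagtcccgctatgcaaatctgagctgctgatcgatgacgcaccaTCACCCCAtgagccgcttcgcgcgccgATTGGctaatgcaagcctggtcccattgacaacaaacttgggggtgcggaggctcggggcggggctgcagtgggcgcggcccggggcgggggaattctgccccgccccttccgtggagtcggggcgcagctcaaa
Insig1 (chr5:28071162-28071411, plus strand): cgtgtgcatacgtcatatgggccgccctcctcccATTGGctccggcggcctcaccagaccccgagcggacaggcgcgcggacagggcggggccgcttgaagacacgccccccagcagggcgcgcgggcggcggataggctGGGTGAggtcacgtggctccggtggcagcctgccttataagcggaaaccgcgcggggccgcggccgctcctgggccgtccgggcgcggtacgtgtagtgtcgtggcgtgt

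Each of these 4 windows held 1 TCACCC and at least 1 CCAAT. No window without TCACCC is shown, so the 4 do not tell how often it occurs. Among the windows of the 8 genes, TCACNCCA was found in Srebf2 alone, where it overlaps the TCACCC. The Srebf1 window shown has its TCACCC starting 15 bases before the start site and its CCAAT 30 bases before it. Neither of the other Srebf1 windows held TCACCC, and 1 of these held CCAAT. Fasn has 3 CCAAT matches, of which the last and the next to last overlap on opposite strands. Over the 13 windows of the 8 genes, TCACCC occurred in 6 and CCAAT in 6. Among all 32851 windows of the same length in the table, 13.8% held TCACCC, 3.67% held TCACNCCA and 33.8% held CCAAT. The windows of Elovl6, Scap and Acaca held none of the 3. A match describes letters and not binding, and both windows of genes that differed and windows of genes that did not held the core.

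Srebf1 had the lowest ratio of the 10 genes, and the other 4 regulators stayed within 2-fold. All 5 enzymes had lower levels in TIC, as did 7092 of the 12004 measured genes, and 3 of the 5 were at least 2-fold lower. In TIC, 4 of the 10 genes (Srebf1, Scd1, Elovl6 and Fasn) lay at least 2-fold lower, against 13.8% of all measured genes. None was at least 2-fold higher, against 14.6% of measured genes. The median log2 ratio was -0.65 for the 10 genes, -1.17 for the 5 enzymes and 0.059 for the 5 regulators, beside -0.16 for all measured genes. The plot of levels by gene shows each pair.

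**Figure D1:**
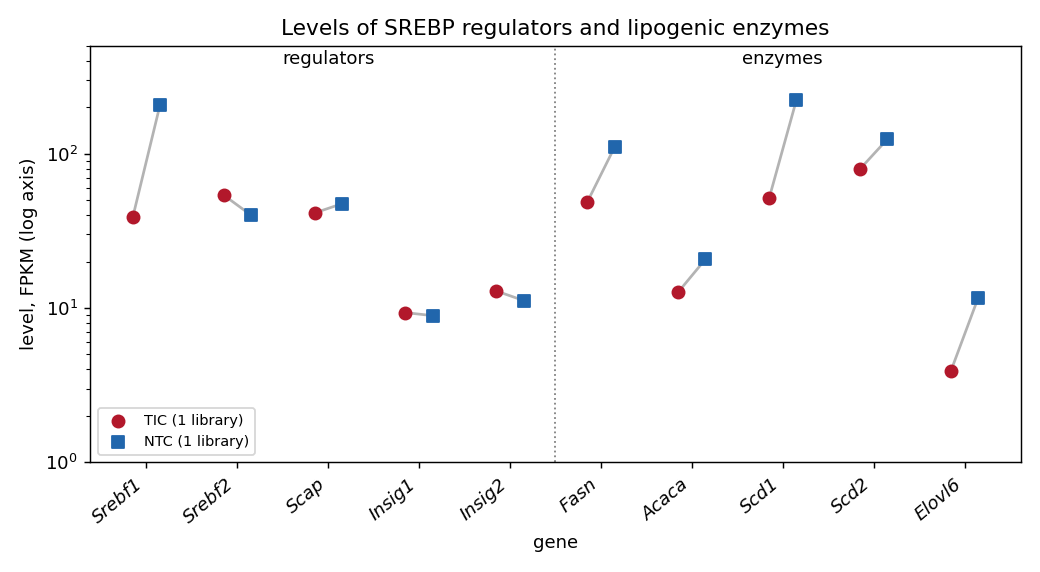
Level of each gene in FPKM on a log axis, with the TIC library as a red circle and the NTC library as a blue square, 1 library each and no error bars. Srebf1 and the 5 enzymes slope down toward TIC, from 18.7% of the NTC level for Srebf1 to 64.2% for Scd2, whereas Srebf2, Scap, Insig1 and Insig2 lie between 87.1% and 134.8% of it.

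Srebf1, the factor of fatty acid genes, had 38.7 FPKM in TIC against 207.1 in NTC (chromosome 11, 59918515 to 60034106, build mm9). The TIC level was 18.7% of the NTC level and the log2 ratio was -2.39. In NTC the gene ranked 228 of 12004 by level, and in TIC 1720. Only 3.65% of measured genes had a lower ratio. The files give Srebf1 and its neighbour Rai1 the same locus, so that locus is longer than Srebf1 itself, and the sources do not say how reads there were assigned. Rai1 had 26.8 FPKM in TIC against 28.5 in NTC, a log2 ratio of -0.087. Srebf1 has several start sites, of which the RefSeq table gives 3, and a level for the gene does not separate the transcripts that begin at them.

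Srebf2, the factor of cholesterol genes, had 53.98 FPKM in TIC against 40.04 in NTC (chromosome 15, 81977699 to 82035390). It had the highest ratio of the 10 genes, a log2 ratio of 0.42, and stayed within 2-fold. The microRNA gene Mir33, whose product is known to act on cholesterol export, has the same locus in the files and was listed at 0 in both libraries. The order of the SREBP genes therefore differed between the libraries. Srebf1 stood at 0.717 times the level of Srebf2 in TIC and at 5.17 times that level in NTC. As a share of the summed level of the pair, Srebf1 made up 41.8% in TIC and 83.8% in NTC, and the sum itself was 92.7 FPKM in TIC against 247.1 in NTC.

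Scap, the sterol-sensing escort, had 41.3 FPKM in TIC against 47.4 in NTC (chromosome 9, 110235797 to 110287450), a log2 ratio of -0.19 that lies next to the median gene. Its row is annotated with several gene identifiers, so the value may combine genes. Insig1, the anchor whose own transcription is known to respond to SREBP, had 9.34 FPKM in TIC against 8.92 in NTC (chromosome 5, 28397952 to 28405202), a log2 ratio of 0.059. Insig2, the second anchor, had 12.9 FPKM in TIC against 11.2 in NTC (chromosome 1, 123200930 to 123229157), a log2 ratio of 0.19. The INSIG pair kept nearly the same make-up, with Insig2 at 58.0% of their summed level in TIC and 55.6% in NTC. Scap stood at 4.42 times the level of Insig1 in TIC and 5.31 times in NTC.

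**Figure D2:**
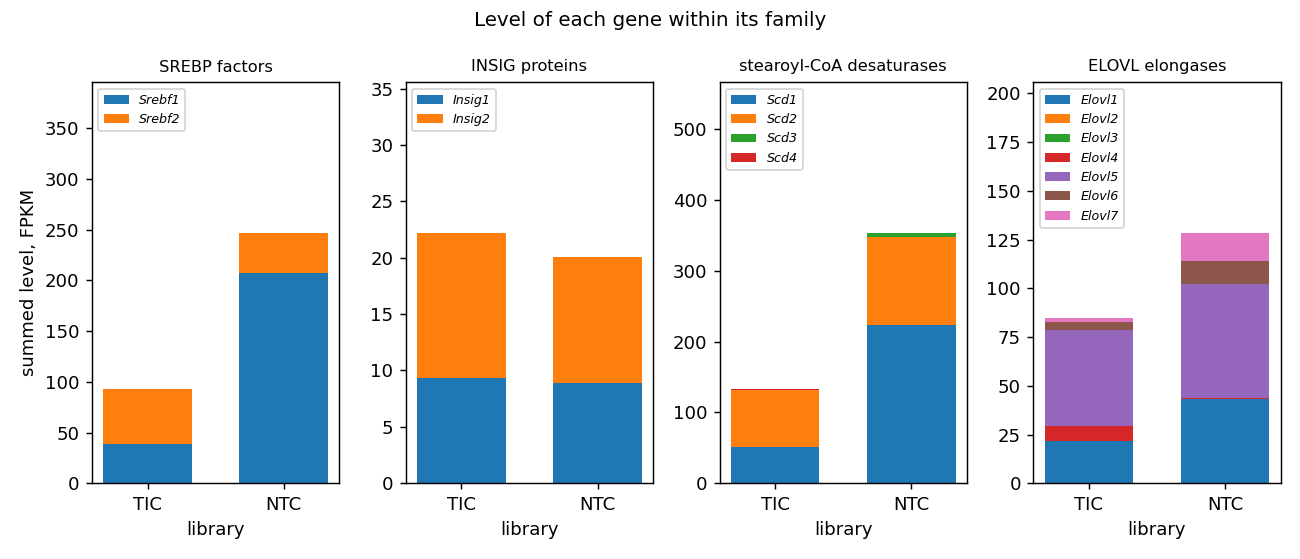
Summed level in FPKM of 4 gene families, with the TIC bar left of the NTC bar and each colour a gene. The SREBP and desaturase bars are taller in NTC, mostly by Srebf1 and Scd1, and the INSIG bars are of like height at 22.2 FPKM in TIC and 20.1 FPKM in NTC.

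Acaca, the enzyme of the first committed step, had 12.7 FPKM in TIC against 20.7 in NTC (chromosome 11, 84008940 to 84215153). The log2 ratio was -0.67, within 2-fold, and 23.3% of measured genes had a lower one. The Acaca value is uncertain, because 52.6% of the 50-base stretches of its longest GENCODE coding transcript also occur in the predicted gene Gm5182 and the sources do not say how such reads were assigned. Acacb, the second carboxylase, known for its place at the mitochondrion, had 0.889 FPKM in TIC against 2.19 in NTC. Acaca thus supplied 93.5% of carboxylase level in TIC and 90.4% in NTC.

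Fasn, fatty acid synthase, had 48.6 FPKM in TIC against 110.4 in NTC (chromosome 11, 120667272 to 120685861). The TIC level was 44.1% of the NTC level and the log2 ratio -1.17. No 50-base stretch of its transcript occurs in another gene. Of the 4 genes past 2-fold it lay nearest to the line, and Acaca, at -0.67, was the nearest gene within it. Relative to Acaca, which works just before it, Fasn stood at 3.84 times the level in TIC and 5.33 times in NTC.

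Scd1, the main lipogenic desaturase of liver and fat in mice, had 51.5 FPKM in TIC against 223.0 in NTC (chromosome 19, 44468940 to 44482199). The TIC level was 23.1% of the NTC level and the log2 ratio -2.09, with 4.59% of measured genes lower. Scd2, the isoform known from brain and from newborn mice, lies on the same chromosome (44368166 to 44381352) and had 79.7 FPKM in TIC against 124.2 in NTC, a log2 ratio of -0.63. The order of the desaturases differed between the libraries. Scd2 was the higher of the pair in TIC, where Scd1 stood at 0.646 times its level, and Scd1 was the higher in NTC, at 1.795 times. Of the minor copies, Scd3 was also lower, at 1.07 FPKM in TIC against 5.78 in NTC, and Scd4 was below 1 FPKM in both. Of the 50-base stretches of Scd1 and Scd2, 4.66% and 4.01% occur in another gene, chiefly in each other and in Scd3.

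Elovl6, the elongase of palmitate, was the lowest of the enzymes, with 3.91 FPKM in TIC against 11.7 in NTC (chromosome 3, 129235304 to 129341411). The TIC level was 33.5% of the NTC level and the log2 ratio was -1.37. It had a log2 ratio of -0.90, within 2-fold, when 5 FPKM rather than 1 was added. Of its 50-base stretches, 4.397% occur in other genes. Within the ELOVL family the differences lay on both sides. Elovl7 was also lower in TIC, at 2.37 against 14.7 FPKM. Elovl1, which acts on very long saturated chains, had 21.5 against 43.1 FPKM, and Elovl5, which acts on polyunsaturated chains, had 49.2 against 58.7 FPKM. Elovl4, known for the longest chains of skin and retina, was higher, at 7.78 FPKM in TIC against 0.344 in NTC. Elovl6 made up 4.61% of the summed family level in TIC and 9.08% in NTC.

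**Figure D3:**
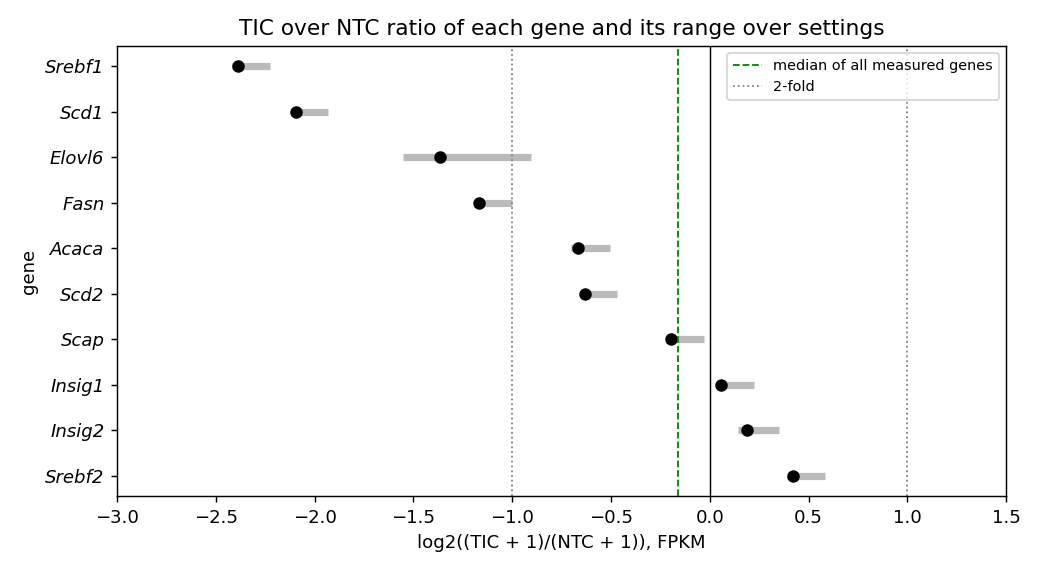
The log2 ratio of TIC over NTC for each gene (black point), with a grey bar for its range over the main setting and 8 alternatives, the median of all measured genes as a dashed line and 2-fold as dotted lines. Srebf1 and Scd1 stay beyond 2-fold along their whole bars, Fasn ends at -1.003, and the bar of Elovl6 crosses the line at its upper end of -0.90.

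Ordered by level, the genes ran from Scd2 (79.7 FPKM) over Srebf2, Scd1 and Fasn down to Scap, Srebf1, Insig2, Acaca, Insig1 and Elovl6 (3.91 FPKM) in TIC. In NTC they ran from Scd1 (223.0 FPKM) over Srebf1, Scd2, Fasn, Scap and Srebf2 down to Acaca, Elovl6, Insig2 and Insig1 (8.92 FPKM). Without replicates, no neighbours in either order can be said to differ beyond their spread. Summed over the 5 enzymes, the level was 196.4 FPKM in TIC against 490.0 in NTC, and over the 5 regulators 156.2 against 314.7 FPKM. Srebf1 alone differed by -168.4 FPKM (TIC minus NTC), more than the whole gap between the sums of the regulators.

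**Figure D4:**
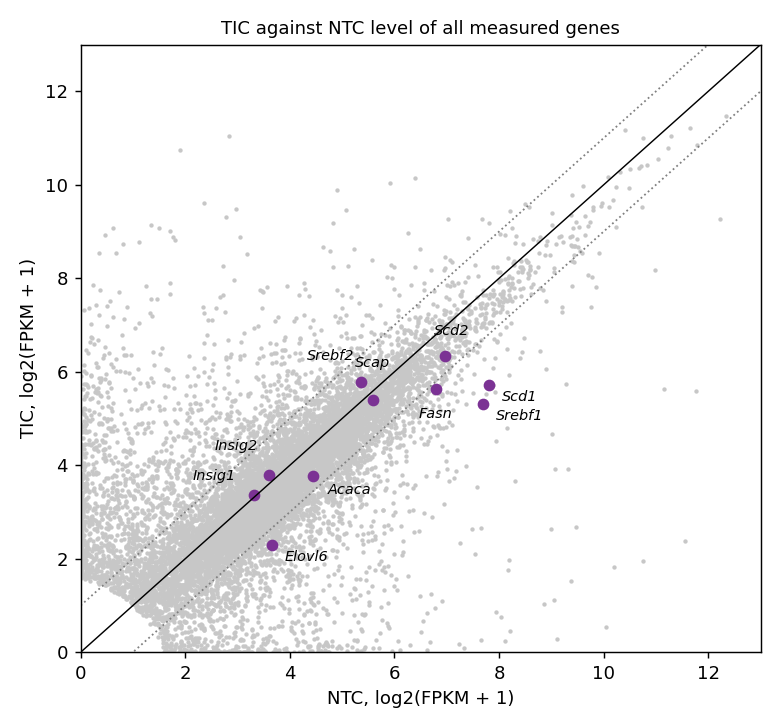
Level of each of the 12004 measured genes in TIC (vertical axis) against NTC (horizontal axis), both as log2(FPKM + 1), with the 10 genes in purple, the line of equal levels and dotted lines at 2-fold. Scd1 and Srebf1 lie together below the lower 2-fold line among the highly expressed genes, and Insig1 lies on the line of equal levels.

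The genes that feed substrate and reducing power to fatty acid synthesis were mostly lower in TIC, as the enzymes were. Of 7 such genes, 5 were at least 2-fold lower and 0 at least 2-fold higher, against 13.8% and 14.6% of all measured genes, and the median log2 ratio was -1.22. Me1, the malic enzyme that yields NADPH, had 4.74 FPKM in TIC against 31.9 in NTC, a log2 ratio of -2.52. Idh1, another cytosolic source of NADPH, had 13.4 against 42.8 FPKM. Acly, which splits citrate into acetyl-CoA, had 36.3 against 85.9 FPKM, and Acss2, which makes acetyl-CoA from acetate, had 2.15 against 5.99 FPKM. Pgd and G6pdx, of the pentose phosphate pathway, had 36.2 against 95.7 FPKM and 26.0 against 47.7 FPKM. The citrate carrier Slc25a1 was level, at 21.8 FPKM in TIC and 21.3 FPKM in NTC. The rows of Acly and Pgd carry several gene identifiers, and 3 of the 5 remained past 2-fold once such rows were left out.

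A broader list of 20 genes of elongation, desaturation and chain release, 16 of them measured, had a median log2 ratio of -0.86. Of these, 6 were at least 2-fold lower in TIC, against 13.8% of all measured genes, and 2 at least 2-fold higher, which is near the 14.6% of all. With 5 FPKM added these counts were 3 and 1, against 7.67% and 9.05% of measured genes. Olah, the thioesterase that ends chains early in the mammary gland to give medium-chain milk fatty acids, was listed at 0 in TIC, against 3.02 FPKM in NTC. Fads3 had 15.8 against 55.9 FPKM, and Ptplad2, named for its likeness to the elongation dehydratases, had 0.424 against 3.91 FPKM. The dehydratase Ptpla was higher, at 13.9 FPKM in TIC against 5.47 in NTC, as was Elovl4. Ptplb had 9.62 against 8.24 FPKM. Fads1, the delta-5 desaturase of polyunsaturated fatty acids, was level at 141.0 FPKM in TIC and 133.6 FPKM in NTC.

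Sterol genes known as targets of SREBP-2 were mostly lower in TIC, whereas Srebf2 was 1.35 times its NTC level. Of 23 measured, 7 were at least 2-fold lower and 0 at least 2-fold higher, against 13.8% and 14.6% of all measured genes, and the median was -0.62. The lowest ratios were those of the synthesis enzymes Pmvk (4.73 against 17.3 FPKM), Idi1 (3.74 against 14.04 FPKM), Fdps (1.56 against 6.46 FPKM), Fdft1 (8.36 against 25.0 FPKM) and Dhcr7 (8.18 against 20.8 FPKM). Hmgcs1, at the entry of the pathway, had 25.9 FPKM in TIC against 14.1 in NTC, within 2-fold. Other high ratios were those of the cholesterol exporter of lysosomes Npc1 (23.7 against 18.04 FPKM), Mvk (7.81 against 6.18 FPKM) and Hsd17b7 (6.37 against 6.34 FPKM). With 5 FPKM added to each level, 3 of the list were at least 2-fold lower, against 7.67% of all measured genes.

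**Figure D5:**
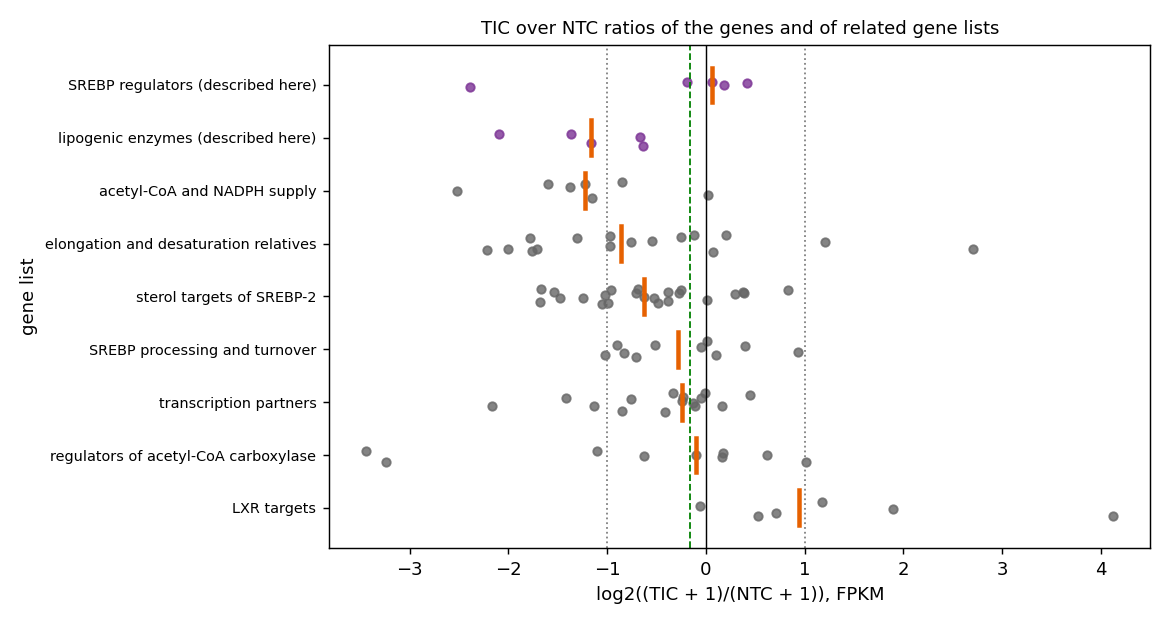
The log2 ratio of TIC over NTC for each measured gene (points) of 9 groups, with the median of each group as an orange bar, the median of all measured genes as a dashed line and 2-fold as dotted lines. The enzymes and the supply genes have medians below -1, at -1.17 and -1.22, and the listed LXR targets have the highest median, at 0.94.

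Of 10 genes that cleave or remove SREBPs or act on their partners, 1 was at least 2-fold lower in TIC, against 13.8% of all measured genes, and 0 at least 2-fold higher, against 14.6%. The count is near the background, and the median was -0.28. Mbtps1, the site-1 protease that makes the first cut, had 59.9 FPKM in TIC against 30.9 in NTC, and Mbtps2, the site-2 protease that makes the second, had 6.39 against 11.03 FPKM. The Mbtps2 row carries several gene identifiers. The gene past 2-fold was Rnf145, a ubiquitin ligase that acts on SCAP, at 28.4 against 58.5 FPKM, and it was within 2-fold under each of the 3 rescalings of the libraries, under which Mbtps1 (log2 ratio 0.93 as deposited) passed 2-fold. Rnf139, a ubiquitin ligase of the endoplasmic reticulum, had 5.15 against 5.10 FPKM. Erlin1 and Erlin2, which bind SREBP complexes in the membrane, had 8.04 against 15.0 FPKM and 33.5 against 48.3 FPKM, and Aup1, of the degradation machinery of the endoplasmic reticulum, had 22.7 against 43.0 FPKM. Fbxw7, which marks nuclear SREBP for breakdown, had 12.7 against 13.2 FPKM, and Ufd1l had 20.7 against 19.2 FPKM.

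Among 15 transcription factors and coactivators that work with SREBP or drive the same genes, 3 lay at least 2-fold lower in TIC and 0 at least 2-fold higher, against 13.8% and 14.6% of all measured genes. Their median of -0.24 was near the -0.16 of all measured genes. Mlxipl, which encodes the carbohydrate-responsive factor ChREBP, had 0.479 FPKM in TIC against 5.65 in NTC. Lpin1, a phosphatidate phosphatase that also acts on SREBP, had 1.96 against 6.91 FPKM and Nr1h3, the oxysterol receptor LXR alpha that activates Srebf1, had 0.349 against 1.97 FPKM. These 3 are low genes, and none stayed past 2-fold with 5 FPKM added. The coactivator Ppargc1b had 3.20 against 6.56 FPKM and the LXR partner Rxra 27.9 against 48.0 FPKM. The NF-Y subunits Nfya and Nfyb had 27.5 against 24.5 FPKM and 9.98 against 7.03 FPKM.

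Among regulators of acetyl-CoA carboxylase, 3 of 9 measured lay at least 2-fold lower in TIC and 1 at least 2-fold higher, against 13.8% and 14.6% of all measured genes, with a median of -0.10. The median was -0.63 with a filter of 5 FPKM or without rows of several gene identifiers, and under both, as with 5 FPKM added, none was at least 2-fold higher. Thrsp, the Spot 14 protein that promotes lipogenesis in mammary gland and liver, had 5.45 FPKM in TIC against 69.0 in NTC, a log2 ratio of -3.44 and the lowest of the list. Its relative Mid1ip1, which helps the carboxylase to form filaments, had 3.90 against 3.33 FPKM. AMP-activated protein kinase, which phosphorylates and inhibits the carboxylase, differed in its catalytic subunits, with Prkaa2 at 0.471 against 12.9 FPKM and Prkaa1 at 11.3 against 7.001 FPKM. Its beta subunits also went opposite ways, with Prkab1 at 21.2 against 46.8 FPKM and Prkab2 at 6.75 against 2.85 FPKM. The rows of both alpha subunits, of Prkab2 and of Prkag2 carry several gene identifiers. Prkag1, Prkag2 and the upstream kinase Stk11 stayed within 2-fold.

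The genes whose pair of levels was nearest to a given gene were found by distance in log2(FPKM + 1) over the 2 libraries. For Srebf1 the nearest of all measured genes were Tgfb3 (44.95 FPKM in TIC against 213.4 in NTC), Atf3 and Mt2, at distances of 0.21, 0.32 and 0.33, and the nearest of the listed genes were Pgd and Acly, at 1.11 and 1.26. For Fasn the nearest were Sdha, Bag1 and Ldhb (distances of 0.035, 0.071 and 0.088), and again Pgd and Acly of the listed genes, at 0.46 and 0.55. For Scd1 they were Trps1, Tagln2 and Tgfb3 (0.073, 0.19 and 0.20), and for Elovl6 Epas1, Prodh and Ccdc90a (0.038, 0.042 and 0.068), with the sterol gene Idi1 nearest among the listed genes at 0.25. Since 2 libraries give each gene a single pair of values, many genes lie near any of these by number alone.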

How the data were processed

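The values are FPKM per gene, 1 column per library, as deposited by the authors. CASAVA 1.8.2, TopHat 1.4.0, Cufflinks, Cuffdiff and build mm9 are named in the submitters' processing notes, without roles or settings. RNA was amplified to cDNA from a small input before library construction, per the labels' protocols, so levels may depend on a gene's length and base make-up. Although the heading over the loci names a human build, the loci are those of mouse genes and are given as mm9, with 1 added to each start.

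FPKM are not counts, so no count model was fitted, and 1 library a group allows no test. Ratios used a pseudocount of 1 FPKM, and the filter, a mean over both libraries of 1 FPKM or more, kept 12004 genes. Groups are those of the labels. Python 3.11.15, numpy 2.4.6, pandas 2.3.3 and matplotlib 3.10.9 were used. The calculation was tested on simulated pairs without noise, which checks the arithmetic and not the spread between libraries. The 10 genes and the gene lists were chosen with earlier results of these data known. Every described gene was named, with all measured genes of lists of at most 12 or up to 5 per direction of longer lists, except a few that are not reported here. Relatives in the families of the described genes, genes of the same locus and the markers were named after their values were seen. Alternatives were a pseudocount of 0.1 or 5, no filter or a mean of at least 5 FPKM, 3 rescalings (by the median gene, the upper quartile, or the sum without the 100 highest genes), and leaving out rows with several gene identifiers. Shared 50-base stretches came from GENCODE M21 transcripts.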

Additional observations from a re-analysis of the deposited data

How the results depend on the processing

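The 10 genes were recomputed under 8 alternatives, except Scap, which has no value without the rows of several gene identifiers. The number at least 2-fold lower in TIC was 4 in each except with 5 FPKM added, where it was 3, since Elovl6 (log2 ratio -0.90) then fell short. The number at least 2-fold higher was 0 throughout, and the median log2 ratio lay between -0.67 and -0.49. No ratio of a gene past 2-fold changed sign. Srebf1 ranged from -2.42 to -2.23, Scd1 from -2.11 to -1.93, Fasn from -1.18 to -1.003 and Srebf2 from 0.39 to 0.58. Centring on the median gene raised each ratio by 0.16 and moved the share of measured genes at least 2-fold lower to 11.3% and higher to 16.3%. No paired analysis was possible because each group has 1 library. Depth is known only roughly and may limit low genes. The lists that hold the low genes Nr1h3, Mlxipl and Olah changed their counts past 2-fold with the pseudocount or the filter. Both settings act on low genes at any depth.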

Other observations

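A list of 7 genes known as targets of the oxysterol receptors LXR, mostly of sterol handling, was higher in TIC or near its NTC level. Srebf1, which these receptors also activate, was not on the list and was lower in TIC, at 38.7 against 207.1 FPKM. The values below therefore hold for the listed genes and not for LXR targets in general. Of 6 measured, 3 had a TIC level at least 2-fold higher and 0 one that was 2-fold lower, against 14.6% and 13.8% of all measured genes, and the median log2 ratio was 0.94. With 5 FPKM added, 2 were at least 2-fold higher, against 9.05% of measured genes, and the median was 0.53. With a filter of 5 FPKM, 2 were at least 2-fold higher, against 12.3%, and the median was 0.71. Apoe, the lipid carrier, had 1054 FPKM in TIC against 59.4 in NTC, a log2 ratio of 4.13. Mylip, a ubiquitin ligase of the LDL receptor, had 48.7 against 21.0 FPKM. The cholesterol exporters Abca1 and Abcg1 had 19.3 against 13.04 FPKM and 6.79 against 3.77 FPKM, both within 2-fold. The sterol exporter Abcg5 stood at 2.73 FPKM in TIC, with a listed 0 in NTC, and its partner Abcg8, below the filter, at 1.07 FPKM in TIC, likewise with a listed 0 in NTC. Abcg5 passed the filter through its TIC level alone. Lpcat3, which remodels phospholipids, had 34.7 against 36.2 FPKM. Of the receptors, Nr1h2 had 24.8 against 31.5 FPKM and Nr1h3 0.349 against 1.97 FPKM. Several of these genes are known to respond to other signals as well, and the reason for their levels was not tested.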
